A study of Mus musculus with 16 samples.

Results

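The angiotensin, endothelin and nitric oxide systems set the tone of blood vessels, and 8 of their genes were followed through the ventricles of mice on 4 diets. The genes were taken from the count table by symbol: Ace, Agtr1a, Edn1, Ece1, Ednra, Ednrb, Nos3 and Gucy1a3. Of these, 7 are listed under those symbols and Gucy1a3 under Gucy1a1, the symbol for which RefSeq gives Gucy1a3 as a synonym. All 8 of the 17737 genes of the table passed the filter on low counts. The animals were male C57BL/6 mice, 6 weeks old at the start, which ate 1 diet each for 6 months, with 4 animals and 4 libraries per diet. Chow is a standard rodent feed, NIA and UW are 2 diets made for primates, and mNIA is the NIA diet changed to hold as much sucrose and fat as UW. Each library holds polyadenylated RNA from the lower ventricles of a single animal. Diets are named here as in the sample titles. The library codes spell them otherwise (CC for chow, MNC for NIA, NC for UW and UC for mNIA), so which of the 3 primate-diet groups is which cannot be told apart here, and the mean of the 3 against chow is the contrast that does not turn on it.

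Angiotensin-converting enzyme (Ace), a peptidase on the surface of endothelial cells, makes angiotensin II, and the receptor Agtr1a answers it with vasoconstriction and, in fibroblasts, matrix production. Endothelin-1 (Edn1), cut from its precursor by Ece1, is a strong constrictor that acts through Ednra on muscle cells, while Ednrb on endothelium clears the peptide and prompts the release of nitric oxide. Nitric oxide is made in endothelium by Nos3 and activates soluble guanylate cyclase, whose alpha subunit is Gucy1a1 and whose product, cyclic GMP, relaxes smooth muscle.

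Total counts ran from 3143385 to 6583532 in 14 of the 16 libraries, with NIA replicate 2 at 63005490 and NIA replicate 4 at 2278250. Counts of a single gene were lowest in NIA replicate 4 for all 8 genes, from 10 for Edn1 to 78 for Agtr1a, and Edn1 reached at most 67 counts outside NIA replicate 2, where it had 727. Some libraries lie far from their diet's mean, with a limma quality weight under 0.5: chow replicate 3 (0.23), NIA replicates 1 (0.3) and 4 (0.16) and mNIA replicate 2 (0.36). Markers of heart muscle were present throughout, the 8 cardiomyocyte markers summing to between 44980 and 105500 CPM (counts normalised to TMM-scaled library size) in a library. In whole tissue, fewer cells of a type and less RNA per cell cannot be told apart.

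The windows of 250 bases before the RefSeq start are shown for the 2 endothelin receptors, whose CPM ratio ran from 0.492 to 3.43 over the libraries, and for Ace, whose values on NIA lay apart from the other diets. The sequences are RefSeq's on GRCm38.p6, the assembly of mm10, read 5′ to 3′ on the gene's strand, and capitals mark motif matches. The Ednra window is chr8:77724453-77724702 on the minus strand, that of Ednrb chr14:103843702-103843951 on the minus strand and that of Ace chr11:105967698-105967947 on the plus strand.
Ednra: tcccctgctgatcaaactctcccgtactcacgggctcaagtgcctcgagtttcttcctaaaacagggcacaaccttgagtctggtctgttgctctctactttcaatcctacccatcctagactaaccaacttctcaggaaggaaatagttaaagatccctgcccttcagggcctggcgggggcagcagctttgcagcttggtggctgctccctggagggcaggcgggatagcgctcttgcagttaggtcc
Ednrb: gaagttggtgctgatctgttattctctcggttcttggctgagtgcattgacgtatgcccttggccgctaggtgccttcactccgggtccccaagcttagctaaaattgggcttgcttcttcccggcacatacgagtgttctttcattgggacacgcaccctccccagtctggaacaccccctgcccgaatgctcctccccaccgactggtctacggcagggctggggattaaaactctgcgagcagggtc
Ace: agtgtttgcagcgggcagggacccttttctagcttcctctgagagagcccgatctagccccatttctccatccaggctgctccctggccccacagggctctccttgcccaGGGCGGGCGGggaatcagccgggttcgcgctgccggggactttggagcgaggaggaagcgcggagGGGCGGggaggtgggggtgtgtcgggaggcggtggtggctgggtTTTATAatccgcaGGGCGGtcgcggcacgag
4 motifs were sought on both strands. The TATA box was read as TATAAA and the GC box as GGGCGG. The site of the AP-1 factors was read as TGANTCA and that of the GATA factors as AGATAA. The Ace window held 1 TATA box, on the opposite strand (capitals TTTATA) and 31 bases before the start, and 4 GC boxes, which begin 140, 136, 75 and 18 bases before it, the first 2 overlapping. No match to these letters lay in the window of Ednra or of Ednrb. Of 32851 RefSeq windows of the same length, 12.4% held the TATA box, 32.7% the GC box, 6.7% the AP-1 letters, and 3281 windows held the GATA letters. The Ednrb start of RefSeq lies 776 bases inside the gene's span in the count table, while those used for Ednra and Ace lie within 1 and 3 bases of it. RefSeq gives a further Ace start, 7244 bases from the start in the count table. The window before it, not shown, held no match to the 4 motifs.

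Per length of transcript, the processing enzyme and the angiotensin receptor were the most abundant of the 8 and the endothelin ligand the least. The level per kilobase of exon, averaged over 16 libraries, was 26.4 ± 6.67 CPM per kilobase for Ece1 (SD, n = 16), 23.4 ± 6.42 for Agtr1a, 13.7 ± 4.22 for Ace and 12.1 ± 3.41 for Ednra. It was 10.5 ± 5.36 for Nos3, 7.56 ± 2.05 for Ednrb, 6.37 ± 1.49 for Gucy1a1 and 3.20 ± 0.65 for Edn1. Only the steps from Agtr1a to Ace and from Gucy1a1 to Edn1 were wider than the SD of both neighbours; the other neighbours in this order did not differ beyond their spread. Among 13260 tested genes with a known length, Ece1 stood at the 84.4th percentile of this level and Edn1 at the 32.8th. Across libraries Nos3 varied most, its log2 CPM having an SD of 0.84 (the 92.2nd percentile of all tested genes), and Edn1 least, with an SD of 0.29 (the 18.9th percentile).

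**Figure D1:**
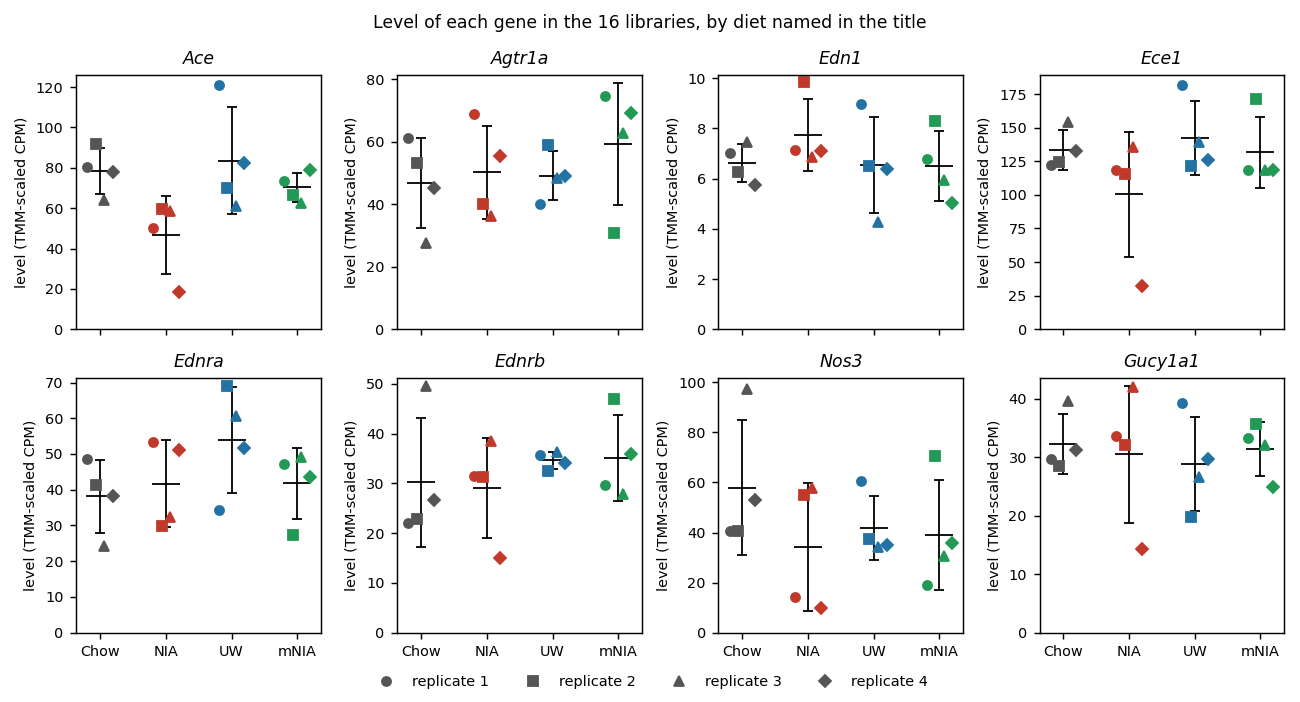
TMM-scaled CPM (y axis, from 0) of each of the 8 genes by diet (x axis), with 1 point per animal, its shape giving the replicate, and bars for the mean ± SD of 4 animals. Ace on NIA lies below every animal of the other diets, from 18.5 to 59.5 CPM, while Nos3 spans 9.96 to 57.7 CPM within NIA alone.

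No gene of the 8 differed between diets past the threshold in edgeR's quasi-likelihood test (adjusted p of 0.05 over 13381 genes, 2-sided). That held for the mean of the 3 primate diets against chow (0 of 8, with 0% of all genes called), for all 6 pairs of diets and for the joint test of any diet difference. In the first of these, 0 of the 8 also had an unadjusted p under 0.05, against 2.19% of all genes, DESeq2 and limma-voom called 0 members, and limma-voom had 2 with an unadjusted p under 0.05 (Ace and Ednrb), beside 9.54% of all genes. Limma-voom called 0.0299% of all genes there. The median log2 fold change of the 8 was 0.00, as was that of all genes. In the other tests edgeR called 0% of all genes, or 0.00747% (1 gene) for mNIA minus chow. Genes with an unadjusted p under 0.05 made up 2.35% for UW minus chow, 1.38% for mNIA minus chow, 8.91% for mNIA minus NIA, 0.986% for mNIA minus UW and 6.88% in the joint test, with 0 of the 8 among them. The ranges that these intervals allow are given below gene by gene, since a p that misses the threshold does not show equal levels.

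Ace, which had the smallest unadjusted p of the 8 genes over the 6 pairs of diets, was lowest on NIA. It lies on mm10 chromosome 11, 105967945 to 105989965, plus strand. Its level was 80.4, 92.0, 64.2 and 78.0 CPM in chow replicates 1 to 4, and 50.3, 59.5, 58.7 and 18.5 CPM on NIA. On UW it was 121, 69.9, 61.3 and 82.2 CPM and on mNIA 73.6, 66.5, 62.8 and 78.9 CPM. All 4 NIA animals thus lay below all 12 others, though the highest of them, at 59.5 CPM, was close to the lowest UW animal at 61.3. Of all tested genes, 0.299% had all NIA values below all other values, and 1.91% had them below all chow values; this pattern was singled out after the values were seen. UW lay above NIA without overlap for 3.29% of all genes and mNIA above NIA for 1.46%.

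Against chow (78.7 ± 11.4 CPM, SD, n = 4) the NIA level of Ace was 46.8 ± 19.3 CPM. The log2 fold change was -0.72 ± 0.28 (SE; 95% interval -1.31 to -0.13), with an unadjusted p of 0.0196 and an adjusted p of 0.481 in edgeR, lower in 4 of 4 animals. It was the single member with an unadjusted p under 0.05 in that comparison, where 8.7% of all genes had one and 0% passed. For UW minus NIA the log2 fold change was 0.81 ± 0.28 (interval 0.22 to 1.40, adjusted p = 0.214 in edgeR and 0.0626 to 0.546 over the alternatives), again the 1 member of 8 under an unadjusted 0.05, beside 13.9% of all genes. For mNIA minus NIA it was 0.56 ± 0.28 (interval -0.03 to 1.15, adjusted p = 0.576 in edgeR), and 0.32 without NIA replicate 4. NIA replicate 4, at 18.5 CPM from 26 counts, widened the gap: without it the log2 fold change of NIA against chow was -0.49, and over all 24 alternatives it stayed between -0.85 and -0.49, with adjusted p from 0.0909 to 1. The libraries also differed in how a gene's deviation from its median over libraries went with its exon length. The Spearman rho across genes was 0.13, -0.24, -0.26 and -0.48 in NIA replicates 1 to 4 and 0.17, -0.01, 0.16 and 0.46 in UW replicates 1 to 4. It lay between -0.13 and -0.02 in chow and between -0.24 and 0.32 in mNIA. The smallest TMM factors were those of NIA replicates 4 (0.618) and 1 (0.76); the remaining 14 libraries had factors of 0.892 to 1.25. The part of these in the values of Ace was not tested. The mean of the 3 primate diets was 0.26 lower than chow on the log2 scale (-0.26 ± 0.22, interval -0.73 to 0.21).

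Agtr1a, on chromosome 13 (30336356 to 30382868, plus strand), varied more within diets than between them. In chow it was at 61.1, 53.1, 27.5 and 45.1 CPM, in NIA at 68.8, 40.2, 36.3 and 55.5, in UW at 40.2, 59.1, 48.3 and 49.1 and in mNIA at 74.5, 30.7, 62.9 and 69.1. The lowest animals were chow replicate 3 and mNIA replicate 2, and the diets overlapped in every pair. For the 3 primate diets minus chow the log2 fold change was 0.17 ± 0.23 (interval -0.32 to 0.66), and it turned to -0.02 without chow replicate 3. It was 0.35 ± 0.28 for mNIA minus chow (interval -0.25 to 0.94) and 0.26 ± 0.29 for mNIA minus NIA (interval -0.34 to 0.86, adjusted p = 0.835 in edgeR). Leaving out 1 library took the former from 0.16 (without chow replicate 3) to 0.53 (without mNIA replicate 2) and the latter from 0.08 (without mNIA replicate 1) to 0.42 (without mNIA replicate 2). The comparison of mNIA with NIA passed in limma-voom with quality weights (0.65, adjusted p = 0.0452) and without the 4 libraries of low weight (0.83, adjusted p = 0.0036 in edgeR), settings in which 14.8% and 23.1% of all genes passed. In the joint test without those libraries Agtr1a passed as well (adjusted p = 0.023 in edgeR, with 9.97% of all genes). That setting leaves NIA replicates 2 and 3, both high in endothelial markers as described below. Agtr1b, a close copy of the gene, had at most 7 counts in any library but NIA replicate 2, where it had 39.

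The ligand gene Edn1 (chromosome 13, 42301476 to 42307991, plus strand) was the steadiest of the 8. Its level was 7.03, 6.26, 7.46 and 5.74 CPM on chow and 7.13, 9.87, 6.86 and 7.11 on NIA. On UW it was 8.98, 6.52, 4.28 and 6.38 CPM and on mNIA 6.77, 8.29, 5.93 and 5.04. The diets overlapped, and the log2 fold change of the primate diets against chow was 0.08 ± 0.20 (interval -0.35 to 0.51), and between 0.01 and 0.14 with 1 library left out. For mNIA minus NIA it was -0.31 ± 0.25 (interval -0.84 to 0.22, adjusted p = 0.753 in edgeR), which limma-voom placed past the threshold (-0.61, adjusted p = 0.0475), as it did 14.8% of all genes. Without NIA replicate 2, the deepest library, the edgeR value was -0.12, and without mNIA replicate 2 it was -0.49.

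Ece1, which frees the active ligand, spans chromosome 4 from 137862237 to 137965230 on the plus strand. Its level was 122, 124, 154 and 133 CPM on chow and 118, 116, 136 and 32.0 CPM on NIA. On UW it was 182, 122, 139 and 126 CPM and on mNIA 118, 171, 119 and 119. NIA replicate 4 alone lay far below, and the other 15 animals ranged from 116 to 182 CPM. The log2 fold change was -0.11 ± 0.25 for the primate diets against chow (interval -0.63 to 0.41; -0.01 without NIA replicate 4) and -0.39 ± 0.31 for NIA against chow (interval -1.04 to 0.25). Without NIA replicate 4 the latter was -0.11. Against NIA it was 0.49 ± 0.31 on UW (interval -0.16 to 1.13) and 0.38 ± 0.31 on mNIA (interval -0.27 to 1.02), and without NIA replicate 4 these were 0.23 and 0.09.

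The constrictor receptor gene Ednra (chromosome 8, 77663029 to 77724453, minus strand) had its highest mean on UW. Its level was 48.6, 41.4, 24.3 and 38.2 CPM on chow, 53.3, 29.9, 32.5 and 51.2 on NIA, 34.3, 69.1, 60.8 and 51.8 on UW and 47.1, 27.3, 49.2 and 43.5 on mNIA. In UW, 3 of 4 animals lay above all chow animals and replicate 1 did not, so the diets overlapped. The share of all genes with such a pattern was not counted. The log2 fold change for UW minus chow was 0.50 ± 0.27 (interval -0.07 to 1.07, adjusted p = 0.977 in edgeR) and without chow replicate 3 it was 0.33. For UW minus NIA it was 0.40 ± 0.27 (interval -0.18 to 0.97, adjusted p = 0.55 in edgeR), and from 0.26 (without NIA replicate 2 or UW replicate 2) to 0.57 (without UW replicate 1) with 1 library left out. The same comparison passed in limma-voom (0.79, adjusted p = 0.035) and without the 4 libraries of low weight (0.81, adjusted p = 0.0189 in edgeR), where 6.85% and 11.8% of all genes passed. Limma-voom also placed Ednra past the threshold in the joint test (adjusted p = 0.0299), with 14.8% of all genes. For mNIA minus UW the value was -0.37 ± 0.27 (interval -0.93 to 0.20), or -0.22 without UW replicate 2, and for the primate diets against chow 0.24 ± 0.22 (interval -0.23 to 0.71), or 0.08 without chow replicate 3.

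Ednrb, the endothelial receptor gene (chromosome 14, 103814615 to 103844477, minus strand), had an SD of 1.74 CPM on UW, the smallest of the 4 diets. In chow it was at 22.0, 22.8, 49.5 and 26.7 CPM and in NIA at 31.5, 31.3, 38.5 and 14.9. The 4 UW animals lay close together at 35.8, 32.4, 36.2 and 34.1 CPM, whereas mNIA gave 29.6, 47.0, 27.8 and 35.9. Chow replicate 3 held the highest value of all 16, so chow overlapped UW and mNIA. The other 3 chow animals lay below all UW and all mNIA animals, a pattern that sets 1 animal aside after the values were seen. The share of all genes with such a pattern was not counted. With all animals, the log2 fold change of the primate diets against chow was 0.13 ± 0.23 (interval -0.34 to 0.60), and leaving out 1 library moved it between 0.01 (without chow replicate 1) and 0.47 (without chow replicate 3), with an adjusted p that did not reach the threshold in any setting (smallest 0.275, limma-voom).

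Nos3, the endothelial nitric oxide synthase gene (chromosome 5, 24364819 to 24384475, plus strand), ranged 9.78-fold over the 16 libraries. It was at 40.6, 40.6, 97.4 and 52.9 CPM on chow and at 14.3, 55.1, 57.7 and 9.96 on NIA. On UW it was at 60.7, 37.3, 34.1 and 35.0 CPM and on mNIA at 19.2, 70.4, 30.8 and 36.0. NIA split into 2 high and 2 low animals, and every diet overlapped every other. The primate diets had a log2 fold change of -0.57 ± 0.37 against chow (interval -1.35 to 0.21, adjusted p = 0.938 in edgeR), and without chow replicate 3 it was -0.20. For NIA it was -0.68 ± 0.47 (interval -1.66 to 0.31), for mNIA -0.57 ± 0.47 (interval -1.55 to 0.42) and for mNIA minus NIA 0.11 ± 0.47 (interval -0.88 to 1.10). Without chow replicate 3 the values for NIA and mNIA were -0.30 and -0.19, and without mNIA replicate 2 that for mNIA was -1.03. The direction of the NIA difference turned to 0.31 without the 4 libraries of low weight, and mNIA minus NIA to -0.96 (adjusted p = 0.0169 in edgeR, where 23.1% of all genes passed), so no direction is given for these 2. Exons of Nos3 share 294 bases with Atg9b on the opposite strand; the libraries mark strand, whether counting used it is not given in the sources used here, and Atg9b had at most 17 counts outside NIA replicate 2. Antisense genes also overlap exons of Nos3 (Gm15587, 1040 bases), Ace (Gm11651, 267 bases) and Edn1 (Gm47118, 35 bases), so reads from these pairs may not have been told apart.

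Gucy1a1, on chromosome 3 (82092427 to 82145947, minus strand), had diet means between 28.9 and 32.3 CPM. Its level was 29.7, 28.4, 39.6 and 31.2 CPM on chow, 33.6, 32.2, 42.0 and 14.2 on NIA, 39.3, 19.8, 26.7 and 29.7 on UW and 33.3, 35.6, 32.0 and 24.9 on mNIA. NIA replicate 4 and UW replicate 2 were the lowest. The log2 fold change of the primate diets against chow was -0.08 ± 0.21 (interval -0.52 to 0.36), and 0.04 without chow replicate 3. Gucy1b1, which encodes the beta subunit that pairs with it and was chosen after its values were seen, had means of 22.5 ± 1.56 CPM on chow, 23.1 ± 4.06 on NIA, 22.6 ± 7.47 on UW and 22.4 ± 2.42 on mNIA. Its log2 fold change in the same contrast was 0.02 ± 0.18 (interval -0.35 to 0.39). The CPM of Gucy1a1 over that of Gucy1b1 lay between 1.10 and 1.85 in 15 libraries and at 0.71 in NIA replicate 4. Exons sum to 4826 bases for Gucy1a1 and 3227 for Gucy1b1, and the part of exon length in this ratio was not tested.

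**Figure D2:**
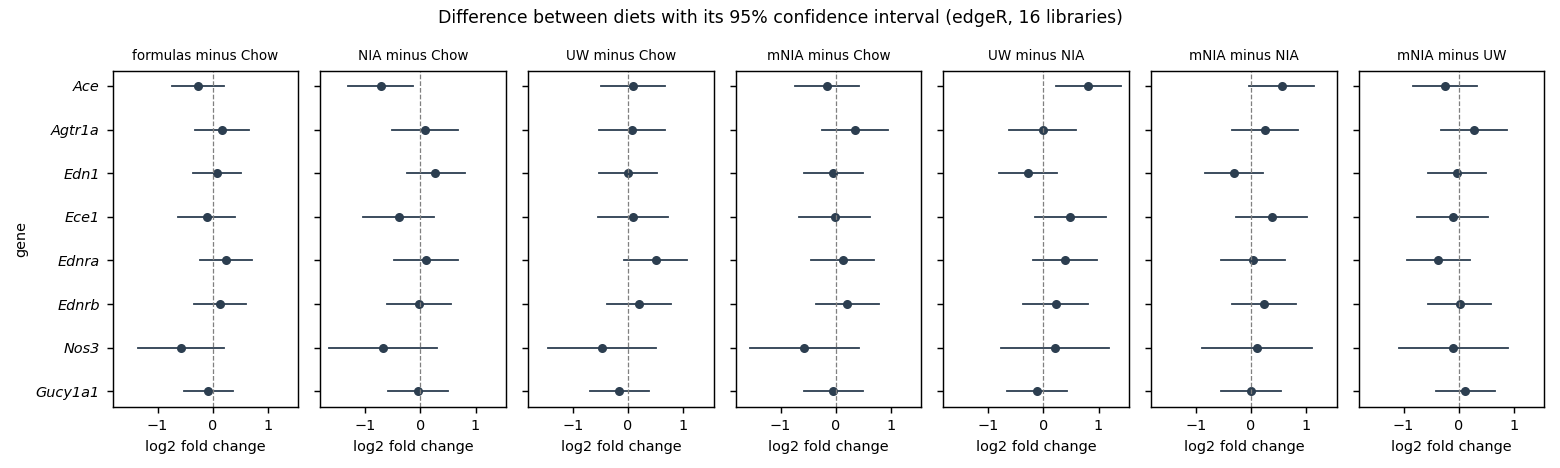
Log2 fold change (x axis) of each gene (y axis) in the 7 contrasts of diets, as a point with its 95% confidence interval from edgeR. Only the intervals of Ace for NIA minus chow (-1.31 to -0.13) and UW minus NIA (0.22 to 1.40) leave out 0, before adjustment over 13381 genes.

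Nos3 was opposed to Agtr1a and to Ednra from animal to animal, and not all 8 genes took part: Ace had an r of -0.08 with Agtr1a and -0.17 with Ednra (permutation p = 0.785 and 0.551). In all 4 diets the animal with the most Nos3 was the one with the least Agtr1a: chow replicate 3, NIA replicate 3, UW replicate 1 and mNIA replicate 2. The same animal also had the highest endothelial marker level of its diet in 4 of 4 diets and the least Ednra in 3 of 4. This pattern was noticed in the values and then measured on them. The permutation p compares with unrelated profiles, and the share of all genes with as large an r was not counted. Over 16 libraries, log2 CPM of Nos3 and Agtr1a had a Pearson r of -0.76 (permutation p = 0.00055, adjusted 0.00385 over 28 pairs) and a Spearman rho of -0.81 (permutation p = 0.00033, adjusted 0.00462). It was -0.65 without chow replicate 3 and mNIA replicate 2, the 2 libraries farthest from the median of Agtr1a, and -0.83 on deviations from the diet means. Single diets hold 4 animals, too few for an r of their own. Agtr1a and Ednra were high in the same animals (r = 0.79, permutation p = 0.00023, adjusted 0.00322; rho = 0.66, permutation p = 0.00681, adjusted 0.0347; r = 0.62 without the same 2 libraries and 0.91 within diets). Nos3 and Ednra were opposed (r = -0.70, permutation p = 0.00252, adjusted 0.0118; rho = -0.82, permutation p = 0.00025, adjusted 0.00462; -0.54 without the 2 libraries and -0.86 within diets).

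Ece1 went with Nos3 (r = 0.75, permutation p = 0.00018, adjusted 0.00322; rho = 0.71, permutation p = 0.00291, adjusted 0.0272; r = 0.67 without NIA replicate 4 and UW replicate 1; 0.73 within diets) and with Ednrb (r = 0.78, permutation p = 0.00054, adjusted 0.00385; rho = 0.64, permutation p = 0.00902, adjusted 0.0361; r = 0.70 without the same 2; 0.81 within diets). Ednrb and Nos3 had an r of 0.67 (permutation p = 0.00491, adjusted 0.0196) and a rho of 0.51 (permutation p = 0.0461, adjusted 0.11). Their r was 0.28 without chow replicate 3 and NIA replicate 4, so that relation rests on those 2 libraries. Within diets, with both libraries kept, r was 0.79. Ace and Ece1 had an r of 0.86 (permutation p = 0.00646, adjusted 0.0218) and a rho of 0.39 (permutation p = 0.142, adjusted 0.21). Their r was -0.11 once NIA replicate 4 and UW replicate 1 were left out, so this relation too rests on 2 libraries. Within diets, with both libraries kept, r was 0.82. For Edn1 and its enzyme Ece1 no relation was detected (r = 0.04, permutation p = 0.828, adjusted 0.859; rho = 0.03, permutation p = 0.907, adjusted 0.907). All of these values share library scaling.

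The balance of the 2 endothelin receptors followed the same animals. Ednra over Ednrb, a ratio of CPM that library scaling does not touch, was 2.20, 1.82, 0.492 and 1.43 on chow and 1.69, 0.955, 0.843 and 3.43 on NIA. In UW it was 0.959, 2.13, 1.68 and 1.52 and in mNIA 1.59, 0.58, 1.77 and 1.21. It fell below 1 in 5 libraries and lay between 1.21 and 3.43 in the other 11. Those 5 were the 5 libraries with the highest endothelial marker level, between 0.27 and 0.88 on the centred log2 scale, against -0.91 to 0.04 in the others. By rank, Ednra went with that level more closely than Ednrb did, as given below. The diet means of the ratio, 1.49 ± 0.73 on chow, 1.73 ± 1.19 on NIA, 1.57 ± 0.48 on UW and 1.29 ± 0.53 on mNIA (SD, n = 4), differed by less than the spread within each diet. Exons sum to 3625 bases for Ednra and 4266 for Ednrb. NIA replicate 4, with the ratio of 3.43, had the strongest trend with exon length (rho -0.48), and the part of that trend in the ratio was not tested.

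**Figure D3:**
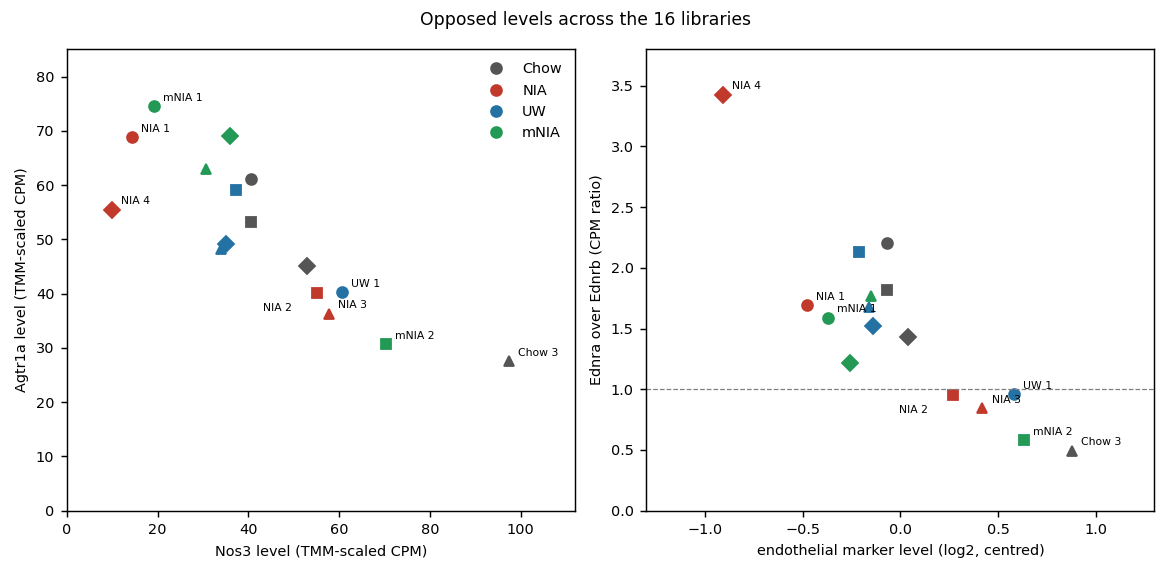
Left, Agtr1a against Nos3 (both axes TMM-scaled CPM, from 0), and right, the CPM ratio of Ednra over Ednrb against the endothelial marker level (centred log2), with 1 point per library coloured by diet and shaped by replicate (circle, square, triangle and diamond for 1 to 4) and 8 libraries labelled. Chow replicate 3, at 97.4 CPM of Nos3 and 27.5 of Agtr1a, and NIA replicate 4, with a ratio of 3.43, are the ends of the 2 patterns.

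Markers of other cell types were set beside these genes, since several are expressed by 1 kind of cell. The endothelial level (the mean of centred log2 CPM over 12 markers such as Pecam1 and Cdh5, none of them among the 8) followed Nos3 most closely of the 8, with r = 0.94 and rho = 0.95 (permutation p = 1e-05 for both, the smallest that 100000 permutations can give, adjusted 0.00016 over 32 relations), 0.88 without chow replicate 3 and NIA replicate 4 and 0.95 within diets. It was opposed to Agtr1a (r = -0.85, permutation p = 1e-05, adjusted 0.00016; rho = -0.85, permutation p = 7e-05, adjusted 0.000747; -0.92 without the 2 libraries; -0.88 within diets). It was likewise opposed to Ednra (r = -0.81, permutation p = 0.00012, adjusted 0.00064; rho = -0.81, permutation p = 0.00031, adjusted 0.00198; -0.81 without the 2 libraries; -0.93 within diets). For Ednrb r was 0.74 (permutation p = 0.00132, adjusted 0.00384), but rho was 0.46 (permutation p = 0.0729, adjusted 0.111) and r was 0.46 without the 2 libraries. Within diets the r of Ednrb was 0.83 with the endothelial level and 0.87 with the pericyte and smooth muscle level. Agtr1a rose with the level of 8 cardiomyocyte markers (r = 0.87, permutation p = 2e-05, adjusted 0.000213; rho = 0.91, permutation p = 1e-05, adjusted 0.00016; 0.86 without chow replicate 3 and NIA replicate 2; 0.86 within diets), as did Ednra (r = 0.75, permutation p = 0.00083, adjusted 0.00266; rho = 0.67, permutation p = 0.00602, adjusted 0.0175; 0.61 without the 2; 0.87 within diets). Ece1 was close to the pericyte and smooth muscle level (r = 0.84, permutation p = 0.00047, adjusted 0.00188; rho = 0.85, permutation p = 0.0001, adjusted 0.0008; 0.60 without chow replicate 3 and NIA replicate 4; 0.86 within diets). Of these 4 marker lists, Edn1 had its highest r with fibroblast markers (0.67, permutation p = 0.00552, adjusted 0.0126; rho = 0.58, permutation p = 0.0223, adjusted 0.0445; 0.47 without NIA replicate 2 and UW replicate 1; 0.76 within diets). Ece1 also went with the endothelial level, with r = 0.73 (permutation p = 0.00011, adjusted 0.00064) and rho = 0.73 (permutation p = 0.00173, adjusted 0.00692). That r was 0.78 without chow replicate 3 and NIA replicate 4 and 0.75 within diets. Nos3 and Gucy1a1 also went with the pericyte and smooth muscle level (r = 0.82 and 0.83, and 0.59 and 0.58 without those 2 libraries). Markers of macrophages, lymphatic endothelium and erythrocytes were not correlated with the 8 genes.

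All 12 endothelial markers were tested and none was at 0 overall. Their summed level ran from 2341 to 4339 CPM on chow, 2176 to 3426 on NIA, 2185 to 3561 on UW and 2031 to 4018 on mNIA, and the 12 pericyte and smooth muscle markers summed to 1594 to 1894, 1452 to 1892, 1609 to 1984 and 1811 to 1985 CPM. In NIA replicate 4, lowest in the mean endothelial level (-0.91) but with a sum of 2834 CPM, the endothelial markers did not move together. Fabp4 was at its highest of the 16 libraries there (2141 CPM) and Emcn at its highest on NIA (106 CPM), while Vwf, Kdr and Flt1 were at their lowest (10.7, 85.4 and 55.5 CPM). In the primate diets against chow, 10 of 12 markers of either list had a log2 fold change below 0 (medians -0.23 and -0.35; 49.6% of all genes were below 0), and 0 passed in edgeR. On chow, replicate 3 had the endothelial sum of 4339 CPM (level 0.88), while replicates 1, 2 and 4 had 2341, 2380 and 2440 CPM (levels -0.07, -0.07 and 0.04). Its pericyte and smooth muscle level was 0.58, with 0.06, 0.02 and 0.32 in those replicates. The part of that library in these directions was not tested. In the same contrast all 8 cardiomyocyte markers were above 0, with a median of 0.10. With the endothelial level as a covariate in the fit, the log2 fold changes of the primate diets against chow were -0.20 for Ace, -0.02 for Agtr1a, 0.16 for Edn1, 0.03 for Ece1, 0.05 for Ednra, 0.34 for Ednrb, -0.25 for Nos3 and 0.05 for Gucy1a1. Agtr1a, Ece1 and Gucy1a1 thus turned direction. The unadjusted p of the joint test went from 0.289 to 0.00882 for Ednra (adjusted 0.423) and from 0.0504 to 0.0306 for Ace (adjusted 0.432, edgeR), and 0 of the 8 passed in any comparison. This p fell for every other member as well, as from 0.746 to 0.11 for Ednrb (edgeR). Ednrb had an unadjusted p under 0.05 (edgeR) for the primate diets, for UW and for mNIA, each against chow. The share of all genes under 0.05 in this fit was not counted. For NIA minus chow the value of Ace was -0.64 (adjusted p = 0.487 in edgeR). The part of the other marker lists in the differences of the 8 genes was not tested.

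**Figure D4:**
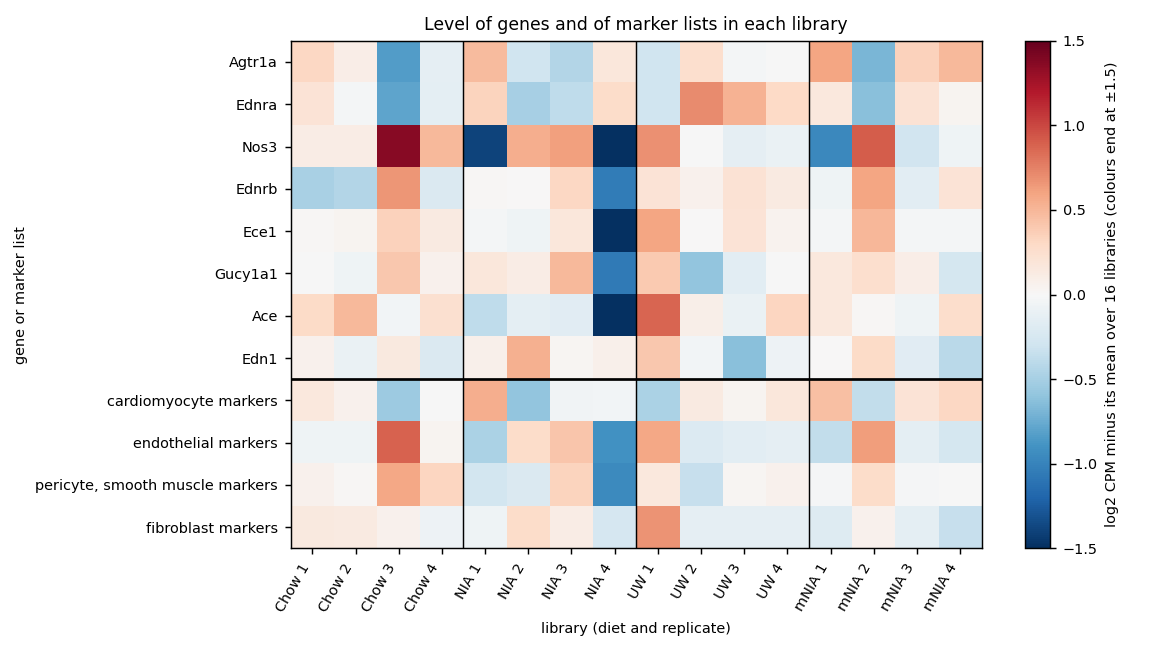
Log2 CPM minus its mean over the 16 libraries (colour) for the 8 genes (upper rows) and the mean over 4 marker lists (lower rows), by library (x axis, black lines parting the diets). Agtr1a and Ednra are low where Nos3 and the endothelial markers are high, as in chow replicate 3, while NIA replicate 4 is low for Nos3, Ednrb, Ece1, Gucy1a1 and Ace. Those genes have the longest exons of the 8, from 4132 bases (Nos3) to 5102 (Ace), against at most 3625 (Ednra) in the rest. In that library a gene's deviation went with its exon length (Spearman rho -0.48), and the part of this in the pattern was not tested.

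For each gene the 3 tested genes with the most similar profile over the 16 libraries were found by Pearson r of log2 CPM. Genes with a clone name or with a mean under 1 CPM in every diet were left out. As the highest of all genes compared, the 3 carry no p. Nos3 was nearest to Arhgef1 (r = 0.99, rho = 0.96), Hdac7 (0.98 and 0.96) and Adamts10 (0.98 and 0.93), with r of 0.97 or 0.98 without NIA replicates 1 and 4. Agtr1a was nearest to Pdk2 (0.95 and 0.91), Nfix (0.95 and 0.94) and Narf (0.94 and 0.87), and Ednra to Gpr146 (0.96 and 0.89), Glul (0.95 and 0.94) and Dusp18 (0.94 and 0.97), all at 0.88 to 0.93 without chow replicate 3 and mNIA replicate 2. Ednrb was nearest to Cep95 (0.93 and 0.86), Ppp1r9a (0.91 and 0.87) and Il1r1 (0.91 and 0.84), with r of 0.81 to 0.84 without NIA replicate 4 and chow replicate 3. Gucy1a1 was nearest to Akap5 (0.94 and 0.89), Slfn9 (0.93 and 0.83) and Abca8b (0.93 and 0.84), falling to 0.73 to 0.85 without NIA replicate 4 and UW replicate 2. Ace was nearest to Slit3 (0.97 and 0.96), Col1a2 (0.96 and 0.88) and Mmp2 (0.96 and 0.74), and r fell to 0.89, 0.76 and 0.71 without NIA replicate 4 and UW replicate 1. Ece1 was nearest to Lima1 (0.97 and 0.58), Mmp28 (0.97 and 0.84) and Plekhg1 (0.97 and 0.66), at 0.74 to 0.84 without those 2. Edn1 had the weakest likeness, to Gpr34 (0.83 and 0.81), H3f3b (0.81 and 0.85) and Gpr182 (0.81 and 0.84), with r of 0.84, 0.82 and 0.65 without NIA replicate 2 and UW replicate 3.

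Other genes of the 3 systems were counted from listed members. Ren1, Agtr2, Edn2 and Ecel1 were not analysed here. Of 15 further renin-angiotensin genes, 13 had a row and 11 were tested, and 0 passed in edgeR in any of the 8 tests. Lnpep, an aminopeptidase that binds angiotensin IV, had the smallest p of the joint test (unadjusted p = 0.0294, adjusted 0.664, edgeR). It was at 31.2, 35.6, 9.62 and 19.4 CPM on chow, 42.8, 20.1, 13.7 and 14.9 on NIA, 34.2, 41.4, 33.1 and 68.4 on UW and 66.0, 18.5, 50.6 and 68.7 on mNIA, with overlap between chow and each other diet. Its log2 fold change for mNIA minus chow was 1.09 ± 0.43 (adjusted p = 0.983, edgeR). Next in order were Thop1, a peptidase that cuts angiotensin I, at 15.1 ± 2.01 CPM on chow and 9.21 ± 5.42 on NIA, and Atp6ap2, the prorenin receptor, at 19.0 ± 1.97 and 23.2 ± 4.50 (SD, n = 4). NIA replicate 4 had 1.42 CPM of Thop1 and 29.2 of Atp6ap2. The other NIA animals had 9.59 to 13.2 and 18.7 to 23.8 CPM. The precursor gene Agt, chosen after its values were seen, stood at 3.04 ± 1.05 CPM on chow and 4.31 ± 2.04 on UW. DESeq2 called 0 of this list, and limma-voom called Lnpep for UW minus NIA (1 of 11, beside 6.85% of all genes) and for mNIA minus NIA (1 of 11, beside 14.8%). In the joint test it called Lnpep and Thop1, 2 of 11 beside 14.8% of all genes.

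Of 9 further endothelin pathway genes, 7 had a row and 6 were tested, with 0 passing in edgeR. Gna11, a G protein subunit that couples to the receptors, had the smallest p, with a log2 fold change of -1.12 ± 0.32 for UW minus NIA (adjusted p = 0.169 in edgeR). It stood at 371, 125, 183 and 427 CPM on NIA and between 118 and 136 on UW, so that NIA replicates 1 and 4 were the high animals. DESeq2 called it in that comparison, with 5.06% of the genes it adjusted, and limma-voom called 0 genes of the list. Plcb1, a phospholipase downstream of the receptors, was at 12.5 ± 2.10 CPM on chow and 17.4 ± 6.28 on UW, and Edn3, a further endothelin ligand, at 6.82 ± 4.14 and 7.23 ± 3.47. UW replicate 1 had 26.8 CPM of Plcb1, while the other UW animals had 13.65 to 14.99 CPM.

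The list of nitric oxide and cyclic GMP genes held 28, all with a row and 26 tested, of which 0 passed in edgeR. In the primate diets against chow 17 of the 26 had a log2 fold change below 0 (median -0.08; 49.6% of all genes), and 1 had an unadjusted p under 0.05, beside 2.19% of all genes. Pts, which helps make the cofactor tetrahydrobiopterin, was at 39.2 ± 5.32 CPM on chow and 61.6 ± 40.3 on NIA, with NIA replicate 4 at 122 and the other NIA animals at 35.3 to 48.1. Prkg2, a kinase activated by cyclic GMP, was at 4.15 ± 2.10 CPM on NIA and 1.49 ± 0.60 on UW, where no UW animal overlapped an NIA animal (3.06% of all genes were lower without overlap). Ass1, which remakes the substrate arginine, was at 5.66, 6.58, 9.62 and 0.68 CPM on chow and at most 3.53 on NIA. DESeq2 called 0 of this list, while limma-voom called Gch1 for mNIA minus NIA (1 of 26) and Gch1 and Slc7a1 in the joint test (2 of 26), where it called 14.8% of all genes in each.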

How the data were processed

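The members, gene lists and tests were chosen with earlier results of these data known. The authors deposited 1 table of expected counts per gene, not scaled (between 13% and 52.4% of a library's values are not whole), which the submitters' processing notes tie to BWA, DESeq2 and mm10; versions, counting tool and gene models are not given in the sources used here. Expected counts were rounded to whole numbers. Coordinates are those of the table; 5 of the 8 genes end 1 base past GENCODE vM21, and exon lengths are the union of its basic transcripts.

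Genes were kept by filterByExpr (13381 genes, 75.4%), scaled by TMM and tested with edgeR 4.0.16 under R 4.3.3 (robust quasi-likelihood, 1 mean per diet, 16 libraries, 2-sided, Benjamini-Hochberg, adjusted p of 0.05). Log2 CPM used a prior count of 2. Titles give 1 animal per library; no batch is labelled. Every pair of diets shares samples with other pairs, so their results are not independent. Alternatives were RLE, DESeq2 1.42.0, limma-voom (limma 3.58.1) with quality weights, 2 filters, a replicate block, left-out libraries and an endothelial covariate. Pairs of diets are given for a gene where its unadjusted p was under 0.25 or an alternative passed. The rule for named genes took the 8 genes, 3 genes of each pathway list with the smallest p in the joint test, those passing or without overlap against chow, and the 3 most similar profiles per gene. The scripts were run on simulated counts with known fold changes. Those counts had less spread than the real ones and no libraries set far from their diet's mean, so the run does not cover these features. Correlations used 100000 permutations, 2-sided. Quality weights come from the same counts.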

Additional observations from a re-analysis of the deposited data

Results flagged for a closer look

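In 4 of 32 groups of 4 animals (8 genes in 4 diets), 1 animal stood apart, the gap to its nearest neighbour exceeding Dixon's critical share of the range; chance alone marks about 1 group in 20. Edn1 was at 9.87 CPM in NIA replicate 2, the library with the most counts, against 6.86 to 7.13 in the other NIA animals. Ece1 was at 171 CPM in mNIA replicate 2 against 118 to 119 in the others. Ednrb was at 49.5 CPM in chow replicate 3 against 22.0 to 26.7, and Nos3 at 60.7 CPM in UW replicate 1 against 34.1 to 37.3. All 4 values were high, and each of the last 3 animals also had the highest endothelial marker level of its diet (0.63, 0.88 and 0.58); the part of this in the values was not tested.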

How the results depend on the processing

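Of 552 alternative values of 23 results on the 8 genes, 533 kept their direction and 19 turned. For the primate diets against chow, limma-voom turned Agtr1a to -0.02 and Gucy1a1 to 0.02. The endothelial covariate gave -0.02 for Agtr1a, 0.03 for Ece1 and 0.05 for Gucy1a1. Without the 4 libraries of low weight the values were -0.08 for Agtr1a, 0.01 for Ece1, -0.02 for Ednra and 0.08 for Gucy1a1. The same setting gave -0.09 for Ece1 in mNIA minus NIA and, for Nos3, 0.31 in NIA minus chow and -0.96 in mNIA minus NIA, which limma-voom put at 0.07 and -0.60. Leaving out 1 library in turn moved Agtr1a from -0.02 (without chow replicate 3) to 0.32 and Gucy1a1 from -0.14 to 0.04 (without chow replicate 3) against chow, and Nos3 in mNIA minus NIA from -0.36 (without mNIA replicate 2) to 0.43. The cause was not tested. Ace kept its direction in all 24 settings of each of its 4 results.

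Counts of genes passing over the whole table, 0 in edgeR except 1 for mNIA minus chow, depended on the tool and the libraries. DESeq2 called 127 for NIA minus chow, 1 for UW minus chow, 0 for mNIA minus chow, 375 for UW minus NIA, 3 for mNIA minus NIA, 1 for mNIA minus UW and 174 in the joint test. Limma-voom called 4 for the primate diets against chow, then 28, 1, 916, 1979, 1 and 1980 for NIA minus chow, UW minus chow, UW minus NIA, mNIA minus NIA, mNIA minus UW and the joint test. Without the 4 libraries of low weight there were 224 for NIA minus chow, 1 for UW minus chow, 0 for mNIA minus chow, 1627 for UW minus NIA, 3184 for mNIA minus NIA and 1374 in the joint test; this removes libraries far from their diet's mean, which narrows the spread by construction. Leaving out 1 library gave 0 to 116 for NIA minus chow, 0 to 1 for mNIA minus chow, 0 to 217 for UW minus NIA, 0 to 1 for mNIA minus UW and 0 to 110 in the joint test, the highest of the 3 large ones without NIA replicate 2.

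The replicate block left 0 genes for mNIA minus chow and changed no call of the 8 genes. Libraries with the same replicate number were not more alike than others. Their deviations had r from -0.58 to 0.61 (median -0.08), over 0.1 in 9 of 24 pairs. Differently numbered libraries had r from -0.56 to 0.71 (median 0.05), over 0.1 in 32 of 72 pairs. Only 2 of 16 libraries correlated best with their own number. Whether the numbers mark a shared batch cannot be told from this check, and no batch is labelled. Depth limits Edn1 and NIA replicate 4 most.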
